A study of Mus musculus with 5 samples.

Results

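Cell junctions hold an epithelium together and seal it, and 10 genes that build them were followed through the cell types of the mouse mammary gland. They encode the claudins Cldn1, Cldn3, Cldn4, Cldn7 and Cldn8, occludin (Ocln), the scaffold protein ZO-1 (Tjp1), E-cadherin (Cdh1), the adhesion molecule Epcam and desmoplakin (Dsp). The genes were taken by symbol, which matched 10 of the 32285 genes listed, and the match used no measured value. The choice of genes itself was made with earlier results of these data known. The tissue came from 5 mice with 1 single-cell library each. Libraries KO1, KO2 and KO3 were labelled Frmd3 KO, and libraries WT1 and WT2 were labelled WT. The title of the study concerns the loss of Frmd3, which encodes a FERM domain protein, and the fate of mammary epithelial cells. The sources used here give neither the deleted part of Frmd3 nor the promoter of any Cre, and no strain, sex or age. Counts are unique molecular identifiers (UMIs), each standing for 1 captured transcript, read from the 3′ end with the 10x Genomics version 3 kit.

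Tight junctions lie nearest the lumen, where claudins form paired strands across the gap between neighbouring cells and set which ions pass. Occludin lies in the same strands, and ZO-1 ties them to actin. Below them, E-cadherin forms the adherens junction, and desmoplakin anchors keratin filaments to the desmosome. In the mammary duct, luminal cells face the lumen and carry the tight junctions, and contractile basal (myoepithelial) cells surround them. Luminal cells fall into hormone-sensing cells, which carry oestrogen and progesterone receptors, and luminal progenitors, which lead to milk-secreting cells.

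The libraries held 24197344 to 87577099 UMIs in 3359 to 11040 barcodes, and any pair of libraries shared 3 to 22 barcodes. Barcodes under 500 genes or over 15% mitochondrial UMIs were dropped, leaving 2279 to 10366 per library, and likely doublets were then removed. Cells were clustered without the 10 genes or other junction genes, and clusters were named from marker lists. Cells of the 3 epithelial classes made up 11.6% to 46.6% of a library. They comprised 401 basal/myoepithelial-like, 3739 hormone-sensing luminal-like and 2257 luminal progenitor-like cells. KO1 stood apart, with 45.3% of its cells in clusters that got no name, against 6.01% to 12.4% in the others, and with the lowest median depth, 4186.5 UMIs per cell. KO3 gave 47 luminal progenitor-like cells, against 284 to 749 in the others. The targeted gene itself, Frmd3, was counted at 159, 202 and 44 UMIs in the KO libraries, against 79 and 210 UMIs in the WT libraries. Since a 3′ tag can lie outside the deleted part, this is no check of the genotype.

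The stretch just upstream of a gene's start is shown for 4 genes that were all lower in basal/myoepithelial-like cells than in both luminal classes. Each is the 250 bases before the transcription start, 5′ to 3′ on the gene's own strand, from RefSeq on GRCm38.p6. Capitals mark CACCTG or its other-strand form CAGGTG, an E-box that SNAI and ZEB repressors are known to bind. The windows are chr5:134946935-134947184 on the minus strand for Cldn4, chr5:134985964-134986213 on the plus strand for Cldn3, chr11:69964529-69964778 on the plus strand for Cldn7 and chr17:87635729-87635978 on the plus strand for Epcam.
Cldn4: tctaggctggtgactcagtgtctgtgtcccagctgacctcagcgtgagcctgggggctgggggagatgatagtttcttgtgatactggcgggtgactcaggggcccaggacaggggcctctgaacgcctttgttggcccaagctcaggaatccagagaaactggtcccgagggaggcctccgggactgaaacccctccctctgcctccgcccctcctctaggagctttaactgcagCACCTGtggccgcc
Cldn3: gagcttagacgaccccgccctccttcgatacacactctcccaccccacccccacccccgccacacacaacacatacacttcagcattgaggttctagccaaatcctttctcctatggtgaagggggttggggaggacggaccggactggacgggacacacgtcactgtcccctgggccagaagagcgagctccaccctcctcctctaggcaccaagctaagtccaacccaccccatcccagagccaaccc
Cldn7: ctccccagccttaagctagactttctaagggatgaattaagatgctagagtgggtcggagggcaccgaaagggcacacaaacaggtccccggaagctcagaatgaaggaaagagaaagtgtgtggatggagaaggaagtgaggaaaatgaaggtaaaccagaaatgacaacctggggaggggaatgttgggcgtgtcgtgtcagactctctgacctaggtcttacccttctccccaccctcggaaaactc
Epcam: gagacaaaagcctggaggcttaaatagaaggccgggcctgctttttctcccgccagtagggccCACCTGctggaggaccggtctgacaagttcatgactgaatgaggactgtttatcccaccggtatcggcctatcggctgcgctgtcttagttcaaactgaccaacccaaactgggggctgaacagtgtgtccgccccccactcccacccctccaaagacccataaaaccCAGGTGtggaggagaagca
The motif begins 14 bases before the start of Cldn4, and 187 and 19 bases before that of Epcam. It is in neither the Cldn3 window nor the Cldn7 window shown. A second Cldn7 start has it 97 and 57 bases upstream, and a second Ocln start 213 and 68 bases upstream. The motif is in no window of Cldn1, Tjp1 or Dsp, nor in that of the first Ocln start. The Tjp1 window (chr7:65371245-65371494) lies inside the gene, which spans chr7:65296165-65527781 on the minus strand. Unlike in the other windows, the bases that follow it were not found near the start of a GENCODE transcript. The stretch upstream of the outermost Tjp1 start was therefore not searched. Of all 32851 mouse windows of this length, 17.22% hold the motif. The grainyhead-type motif AACCGGTT, which reads the same on both strands, was in none of the 10 windows found for 8 of the genes and in 0.1157% of all windows. A match is a run of letters and was not tested as a binding site. Cldn4 (chr5:134945119-134946934, mm10, minus strand) and Cldn3 (chr5:134986214-134987472, plus strand) are neighbours. Their starts face away from each other, 39280 bases apart, with 0 protein-coding genes between them in GENCODE release M21. Cldn3 overlaps the antisense gene Wbscr25, and whether the counting used strand is not stated in the sources used here.

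**Figure D1:**
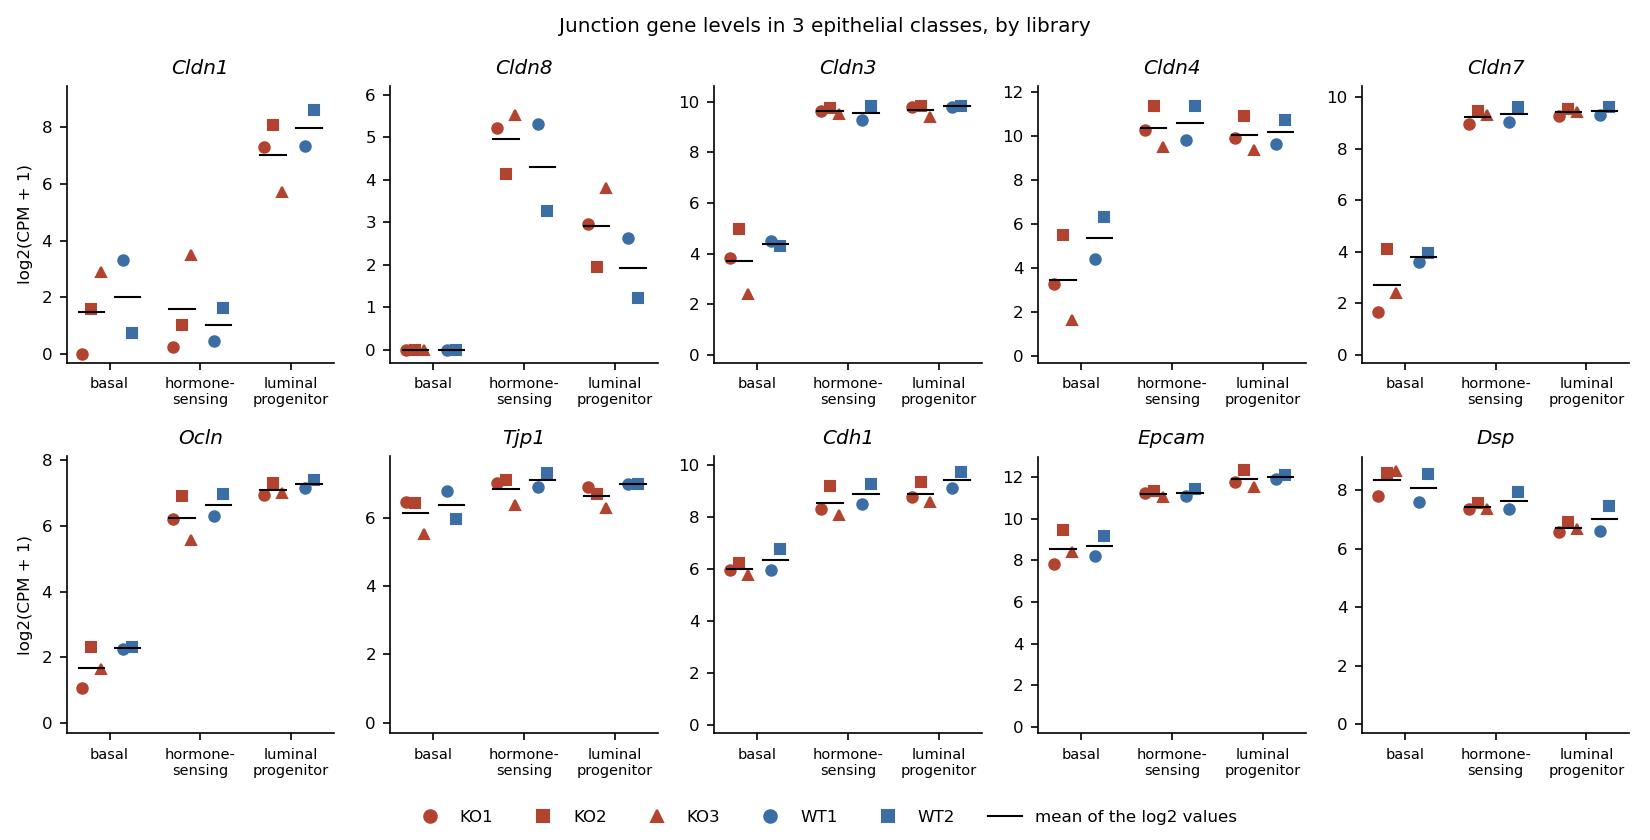
Level of each junction gene, as log2(CPM + 1), in basal, hormone-sensing and luminal progenitor-like cells of KO1 to KO3 and WT1 to WT2. Each point is 1 library and each short line is the mean of the log2 values of a genotype. Cldn1 is high only among the luminal progenitor points, at 51.9 to 393 CPM. Cldn8 is at 0 in all 5 basal sums, and in luminal progenitor-like cells Tjp1 is the 1 gene whose KO and WT points do not overlap.

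Levels are given as CPM, the UMIs of a gene per 1000000 UMIs of that class in that library. They are compared between classes and libraries but not between genes, because a 3′ count is not scaled per transcript length. The class contrasts compare sums per library and class in edgeR's quasi-likelihood test, with the library as a block, all 5 libraries and 13006 genes. P-values are Benjamini-Hochberg adjusted over those genes with a threshold of 0.05.

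The clearest split between the luminal classes was in the claudins Cldn1 and Cldn8. Cldn1 (chr16:26356642-26371841, minus strand), which seals the skin barrier, was far higher in luminal progenitor-like cells than in the other epithelial classes. It had 0.200, 1.05, 10.4, 0.375 and 2.06 CPM in hormone-sensing luminal-like cells of KO1, KO2, KO3, WT1 and WT2, against 157, 268, 51.9, 162 and 393 CPM in luminal progenitor-like cells. The ranges did not overlap, and the level was lower in hormone-sensing luminal-like cells in 5 of 5 libraries. The log2 fold was -6.91 ± 0.99 (SE, edgeR adjusted p = 4.1e-04), and -8.02 without KO3. KO3 had both the highest Cldn1 level among the hormone-sensing sums and the highest luminal progenitor marker sum there, 3572 CPM against 322 to 512 CPM in the other 4 libraries. The part of those cells in its Cldn1 level was not tested.

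Cldn8 (chr16:88560828-88563183, minus strand), a claudin known from the kidney's collecting duct, ran the other way. It had 36.6, 16.7, 45.4, 38.9 and 8.64 CPM in hormone-sensing luminal-like cells of KO1, KO2, KO3, WT1 and WT2, against 6.78, 2.87, 13.0, 5.19 and 1.31 CPM in luminal progenitor-like cells. Within each of the 5 libraries the hormone-sensing value was the higher one, although the ranges over libraries overlapped through the 8.64 CPM of WT2. KO2 and WT2 were the lowest in both classes. The log2 fold was 2.58 ± 0.20 (SE, edgeR adjusted p = 5.3e-07), a 5.99-fold difference. In basal/myoepithelial-like cells Cldn8 had 0 of 4749012 UMIs over all libraries. Counting 3 UMIs as the floor over the group, or 0.632 CPM, its pooled level was at least 35.6-fold higher in hormone-sensing luminal-like cells (22.5 CPM) and at least 7.08-fold higher in luminal progenitor-like cells (4.47 CPM).

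Of the 10 genes, 6 differed between hormone-sensing luminal-like and luminal progenitor-like cells, where 49.7% of all genes did. Cldn8 and Dsp were higher (26.5% of all genes were), and Cldn1, Ocln, Epcam and Cdh1 were lower (23.2% of all genes were). The share of the junction genes called is thus close to that of genes at large. Ocln (chr13:100496507-100552718, minus strand) had 72.6, 119, 46.9, 77.8 and 125 CPM in hormone-sensing luminal-like cells, against 123, 159, 127, 143 and 168 CPM in luminal progenitor-like cells, in the order KO1, KO2, KO3, WT1, WT2. The ranges overlapped, with KO1 the lowest luminal progenitor sum and WT2 the highest hormone-sensing one, but the fall was seen in 5 of 5 libraries (log2 -0.74 ± 0.13 SE, adjusted p = 2.4e-04). Epcam (chr17:87635979-87651129, plus strand), which binds claudin-7 and holds it at the membrane, had 2424, 2595, 2126, 2169 and 2744 CPM against 2992 to 5277 CPM. Its ranges did not overlap (log2 -0.69 ± 0.15 SE, adjusted p = 0.0012). Cdh1 (chr8:106603351-106670246, plus strand), the cadherin that joins epithelial cells to each other, was at 265 to 616 CPM in hormone-sensing luminal-like cells and 379 to 839 CPM in luminal progenitor-like cells. It was lower within each of the 5 libraries (log2 -0.42 ± 0.12 SE, adjusted p = 0.00734). This call was lost in a fit with no library block, where the log2 fold was -0.42 too.

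The remaining 4 genes did not pass between the luminal classes. Cldn3 and Cldn4 are known as receptors of Clostridium perfringens enterotoxin, and Cldn7 as the partner of Epcam. Cldn3 had 794, 849, 720.3, 609 and 905 CPM in hormone-sensing luminal-like cells of KO1, KO2, KO3, WT1 and WT2, against 872, 910.5, 667, 891 and 916 CPM in luminal progenitor-like cells (log2 -0.12 ± 0.17 SE, edgeR adjusted p = 0.584). Cldn7 (chr11:69964779-69967885, plus strand) was at 502 to 789 CPM against 622 to 797 CPM (log2 -0.15 ± 0.16 SE, adjusted p = 0.474). Tjp1 (chr7:65296165-65527781, minus strand) was at 82.9 to 157 CPM against 77.8 to 126 CPM (log2 0.19 ± 0.15 SE, adjusted p = 0.304). A missed threshold does not show that the 2 classes are alike for these genes.

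Cldn4 was the most variable of the 3 broad luminal claudins, and its highest levels were in KO2 and WT2 in both luminal classes. It had 2664 CPM in KO2 and 2635 CPM in WT2 in hormone-sensing luminal-like cells, against 709 to 1235 CPM in KO1, KO3 and WT1. In luminal progenitor-like cells KO2 and WT2 had 1898 and 1663 CPM, against 662 to 967 CPM in the other 3 libraries. Between the classes the log2 fold was 0.35 ± 0.25 (SE, edgeR adjusted p = 0.255), and hormone-sensing values were higher within each of the 5 libraries. The coefficient of variation over libraries in luminal progenitor-like cells was 45.8% for Cldn4, 12.3% for Cldn3 and 10.7% for Cldn7. KO2 and WT2 also had the lowest Cldn8 and the highest Cldn1, Cdh1, Ocln and Epcam in luminal progenitor-like cells. The largest hormone-sensing cluster, of 1961 cells, held 1188 cells of KO2 and 746 of WT2, and a second of 808 cells held 232 of KO1 and 535 of WT1. Cldn4 was at 2979.5 CPM (KO2) and 2886 CPM (WT2) in the first and at 1271 CPM (KO1) and 899.5 CPM (WT1) in the second. Whether the shared number marks a shared day or handling is not stated in the sources used here.

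**Figure D2:**
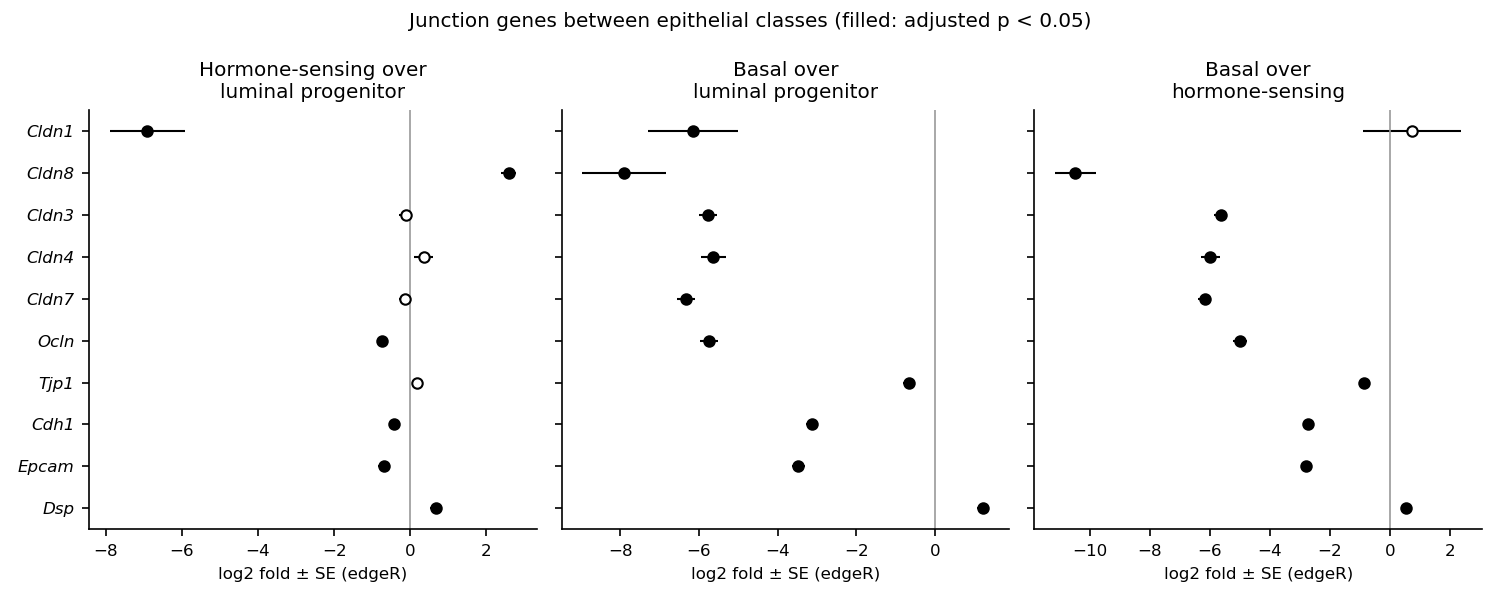
Log2 fold of each junction gene between epithelial classes, with the SE of the edgeR fit (5 libraries, library as a block). Filled points passed an adjusted p of 0.05. In both panels with basal cells on top, Dsp lies to the right of 0, while Cldn3, Cldn4, Cldn7, Ocln, Cdh1, Epcam and Tjp1 lie to the left; the Cldn8 points against basal cells are fits to a count of 0.

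Basal/myoepithelial-like cells stood apart from both luminal classes. Against luminal progenitor-like cells 10 of the 10 genes passed, where 44.8% of all genes did, with 1 higher (22.5% of all genes) and 9 lower (22.4% of all genes). Against hormone-sensing luminal-like cells 9 of the 10 passed, where 55% of all genes did, with 1 higher (25.9% of all genes) and 8 lower (29.1% of all genes). The median log2 fold of the 10 was -5.69 against luminal progenitor-like cells, where the median of all genes was -0.017. Against hormone-sensing luminal-like cells it was -3.89, where that of all genes was -0.064.

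Cldn3, Cldn4 and Cldn7 were all far lower in basal/myoepithelial-like cells. Cldn3 had 13.0, 30.1, 4.26, 21.6 and 18.5 CPM in basal/myoepithelial-like cells of KO1, KO2, KO3, WT1 and WT2, below the 609 to 916 CPM of the luminal sums. Cldn4 had 8.65, 44.1, 2.13, 20.2 and 79.1 CPM there, with KO2 and WT2 again high. Cldn7 had 2.16, 16.0, 4.26, 11.2 and 14.5 CPM. Each was far below every luminal sum. Log2 folds against luminal progenitor-like cells were -5.76 ± 0.23 for Cldn3, -5.63 ± 0.32 for Cldn4 and -6.33 ± 0.23 for Cldn7 (SE). The largest edgeR adjusted p of the 3 was 4.7e-08. With doublets kept, the Cldn3 and Cldn7 folds were -4.67 and -4.95. The basal means were 17.5, 30.8 and 9.63 CPM, against 24.1, 56.5 and 23.8 CPM in B cell-like cells, which should lack the genes. This comparison cannot settle whether basal cells express them. B cell-like cells were shallower, with a median of 4077 UMIs against 9831, and KO3 had none. The 401 basal cells held 86, 178 and 49 UMIs of the 3 genes, against 39, 144 and 46 in 733 B cell-like cells. The basal levels are thus read neither as expression nor as its absence. For Cldn3 the B cell-like mean has an SD of 26.6 CPM (n = 4). Pooled over libraries, Cldn3 was at 18.1 CPM in basal/myoepithelial-like and 12.3 CPM in B cell-like cells. Its mean was also lower in T cell-like (12.3 CPM) and fibroblast-like cells (8.26 CPM). The part of free RNA in them was not tested.

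Ocln had 1.08 to 4.01 CPM in basal/myoepithelial-like cells, from 1 to 6 UMIs per library, and its log2 fold was -5.75 ± 0.23 (SE) against luminal progenitor-like cells and -5.00 ± 0.24 against hormone-sensing luminal-like cells. Cldn1 was at 0, 2.005, 6.39, 8.96 and 0.659 CPM from 0, 1, 3, 12 and 1 UMIs. It was lower than in luminal progenitor-like cells (log2 -6.16 ± 1.14 SE, edgeR adjusted p = 0.00222, -7.67 without WT1 and -5.31 without WT2). Against hormone-sensing luminal-like cells it did not pass (log2 0.75 ± 1.64 SE, adjusted p = 0.727), and the value was -0.98 without WT1 and 2.43, past the threshold, with doublets kept. The fitted log2 folds of Cldn8, -7.91 and -10.49, rest on a count of 0 and are no bounds.

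Cdh1, Epcam and Tjp1 were lower in basal/myoepithelial-like cells but plainly present. Cdh1 had 61.7, 74.2, 53.3, 61.2 and 107 CPM there in KO1, KO2, KO3, WT1 and WT2, below the 265 to 839 CPM of the luminal sums. The log2 fold was -3.13 ± 0.13 (SE) against luminal progenitor-like cells and -2.72 ± 0.13 against hormone-sensing luminal-like cells. Epcam had 224, 702, 339, 294 and 585 CPM, above the 17.2 to 173 CPM of B cell-like cells and below every luminal sum (log2 -3.47 ± 0.17 and -2.78 ± 0.16 SE against the same 2 classes). The 3 classes kept 1 order for Epcam, luminal progenitor, hormone-sensing and basal, with no overlap between neighbours. Tjp1 had 87.6, 86.2, 44.8, 109.7 and 62.0 CPM, a range that overlapped both luminal ranges. Its log2 fold was -0.66 ± 0.16 (SE, edgeR adjusted p = 0.00345) against luminal progenitor-like cells and -0.85 ± 0.16 (adjusted p = 2.8e-04) against hormone-sensing luminal-like cells.

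Dsp (chr13:38151294-38198577, plus strand), the plakin that links desmosomes to keratin, was the 1 gene of the 10 that was higher in basal/myoepithelial-like cells. It had 221, 383, 399, 191 and 370.4 CPM there in KO1, KO2, KO3, WT1 and WT2, against 162, 189, 161, 162 and 243 CPM in hormone-sensing luminal-like cells and 93.8, 118, 101, 95.2 and 175 CPM in luminal progenitor-like cells. Neighbouring ranges overlapped, while the basal sums lay above all luminal progenitor sums. The log2 fold was 1.22 ± 0.15 (SE, edgeR adjusted p = 4.8e-06) against luminal progenitor-like cells and 0.56 ± 0.14 (adjusted p = 0.00347) against hormone-sensing luminal-like cells. Between the luminal classes Dsp was 0.67 ± 0.14 higher in hormone-sensing luminal-like cells (SE, adjusted p = 0.001).

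Luminal progenitor-like cells formed 2 clusters, of 1486 and 771 cells, that the junction genes had no part in making. Cldn1 was at 198, 304, 193 and 417 CPM in the larger cluster in KO1, KO2, WT1 and WT2, against 43.6, 70.4, 46.1 and 145 CPM in the smaller one. Epcam was at 3966 to 5790 CPM against 2278 to 2592 CPM, Cdh1 at 494 to 872 CPM against 241 to 491 CPM and Cldn4 at 899 to 2066 CPM against 428 to 1061 CPM. Within each of those 4 libraries the larger cluster was the higher one for these 4 genes, and also for Cldn3, Cldn7, Ocln, Tjp1 and Dsp. Cldn8 was lower in the larger cluster in each, with 3.58, 2.54, 4.38 and 1.23 CPM in KO1, KO2, WT1 and WT2, against 15.6, 4.69, 8.28 and 2.13 CPM in the smaller one. KO3 had 37 cells in the smaller cluster and only 10 in the larger. Kit was among the 10 leading genes of the smaller cluster, and Aldh1a3, which encodes a retinaldehyde dehydrogenase, among those of the larger. Cells of the larger cluster were also deeper, with a median of 11969 UMIs against 5560 in the smaller one. These values describe clusters and carry no test, and the part of depth in them was not tested.

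**Figure D3:**
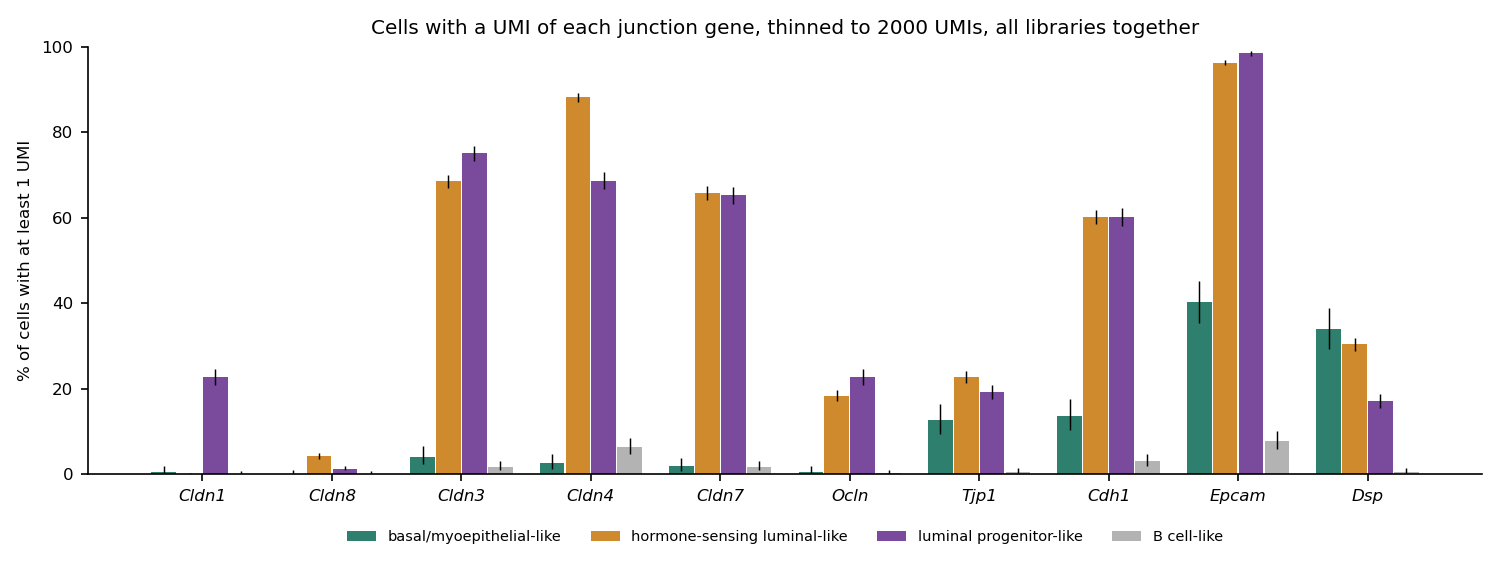
Share of cells with at least 1 UMI of each junction gene in the epithelial classes and in B cell-like cells, after each cell was thinned to 2000 UMIs. Bars pool all libraries and lines are exact 95% binomial intervals for counting error only. Cldn1 stands at 22.7% in luminal progenitor-like cells and under 1% in the other classes, and Dsp is highest in basal/myoepithelial-like cells.

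Detection per cell showed the same layout once each cell was thinned to 2000 UMIs, which left 388 basal/myoepithelial-like, 3572 hormone-sensing luminal-like and 2144 luminal progenitor-like cells and left out 13, 167 and 113 shallower ones. Cldn1 had a UMI in 0.0840% of hormone-sensing luminal-like cells (exact 95% binomial interval 0.0173% to 0.245%) and in 22.7% of luminal progenitor-like cells (20.9% to 24.5%). Without thinning the shares were 1.58% and 47.5%. The luminal progenitor share ranged from 6.82% in KO3 to 38.7% in WT2. Cldn8 had a UMI in 4.14% and 1.31% of these cells (25.2% and 4.30% without thinning), and in 0 of 388 basal/myoepithelial-like cells. In 686 B cell-like cells, with a median of 4077 UMIs against 9831 to 17266 in the epithelial classes, each of the 2 genes had a UMI in 0.146%.

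Epcam had a UMI in 40.2% of thinned basal/myoepithelial-like, 96.4% of hormone-sensing luminal-like and 98.5% of luminal progenitor-like cells, against 7.87% of B cell-like cells. Dsp had one in 34.0%, 30.4% and 17.1% of the 3 classes, in the same order, against 0.583% of B cell-like cells. For Cldn4 the shares were 2.58%, 88.2% and 68.7%, and the basal share lay under the 6.41% of B cell-like cells. KO2 and WT2, with the highest Cldn4, gave 1555 and 969 of the thinned hormone-sensing cells, against 166 to 602 from each other library. They gave 385 and 274 luminal progenitor cells, against 728 from KO1 and 713 from WT1. Pooled shares, here and above, carry this mix of libraries, and the Cldn4 test between the luminal classes did not pass. In basal/myoepithelial-like cells Cldn7 was at 1.80% and Cldn3 at 4.12%, against 1.75% of B cell-like cells for each. Single luminal cells often held several of these claudins at once. Cldn3, Cldn4 and Cldn7 were all detected in 28.7% to 51.3% of thinned hormone-sensing luminal-like cells per library and in 20.5% to 52.2% of luminal progenitor-like cells, and in 0% of basal/myoepithelial-like cells. None of the 3 was detected in 83.3% to 98.4% of basal/myoepithelial-like cells.

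**Figure D4:**
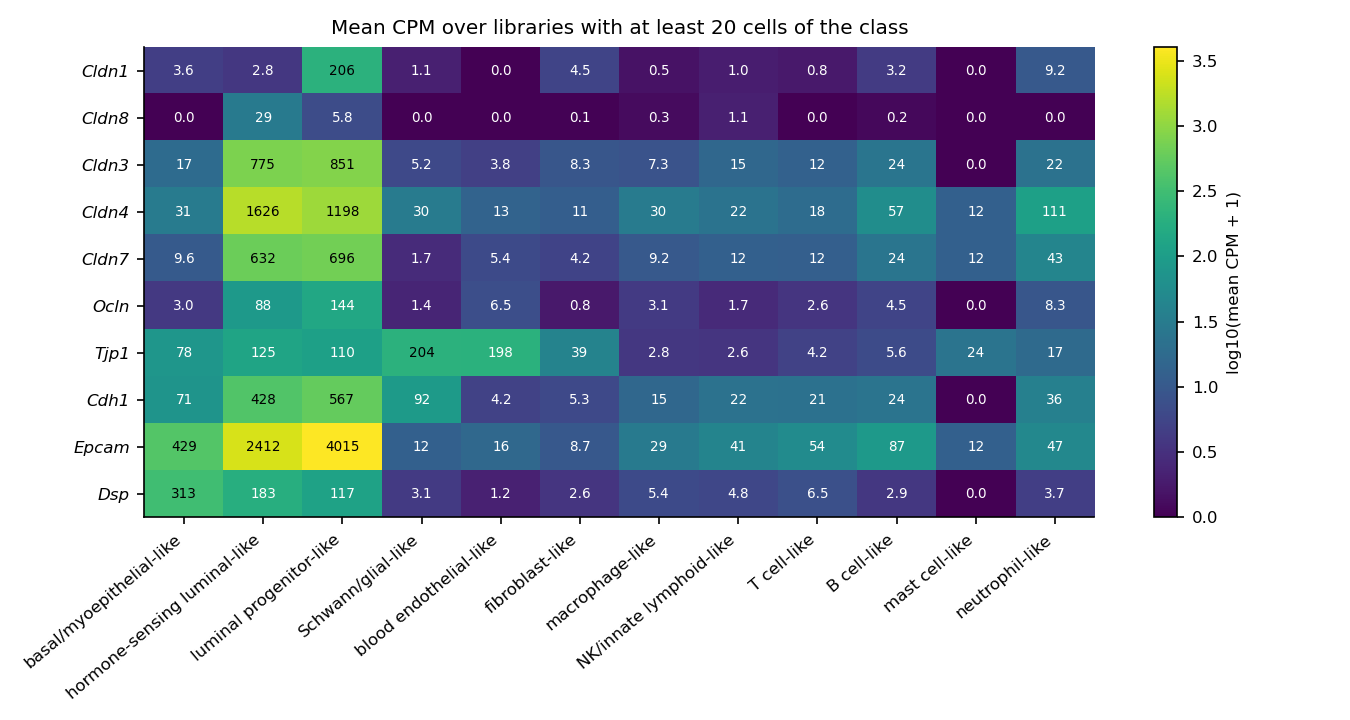
Mean CPM of each junction gene over the libraries with at least 20 cells of a class, for all named classes (colour on a log10 scale, mean CPM printed in each field). Most genes are brightest in the 2 luminal columns, whereas Tjp1 is brightest in Schwann/glial-like (204 CPM) and blood endothelial-like cells (198 CPM), and Dsp in basal/myoepithelial-like cells.

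Outside the epithelium most of the 10 genes were near background, and the exceptions were Tjp1, Cdh1 and Cldn1. Tjp1 was highest in Schwann/glial-like cells, with 192, 208 and 213 CPM in KO1, KO2 and WT2, a mean of 204 ± 10.8 (SD, n = 3). Blood endothelial-like cells had 142, 238 and 214 CPM in KO2, KO3 and WT1, a mean of 198 ± 49.9 (SD, n = 3). ZO-1 is known from endothelial junctions too, and neighbours in this order, from Schwann/glial-like down to basal/myoepithelial-like cells, overlapped. Fibroblast-like cells followed at 37.4 to 44.5 CPM, below and apart from the basal sums. Cdh1 had 24.0, 118 and 135 CPM in Schwann/glial-like cells of KO1, KO2 and WT2. E-cadherin is known from the autotypic junctions of myelinating Schwann cells. The class pools a cluster of 99 cells, with 173 CPM of Cdh1 and 295 CPM of Tjp1, and a cluster of 78 cells, with 13.99 and 64.3 CPM, and 8 of the 26 cells of KO1 were in the first.

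A cluster of 63 cells inside the fibroblast-like class had the highest Cldn1 level of any cluster. It was led by Sfrp5, Igfbp6, Apod and Hcn4, and Cldn1 was among its 10 leading genes although it was not used for clustering. Cldn1 was at 671, 640, 526, 1066 and 699 CPM in its 8, 24, 4, 7 and 20 cells of KO1, KO2, KO3, WT1 and WT2, and 90.5% of the 63 cells had a UMI. All 5 libraries were above the 51.9 to 393 CPM of luminal progenitor-like cells. Tjp1 was at 411 CPM and Epcam at 22.8 CPM in the cluster. Fibroblast-like cells as a whole had 1.55, 9.90, 1.99, 4.34 and 4.66 CPM of Cldn1, and 1.01, 2.68, 0.734, 1.87 and 2.17 CPM without this cluster. It was singled out after its values were seen, so it gets no name and no test.

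Over 48 sums of library and class in 12 classes, the genes most like the junction genes were found by Pearson's r of log2(CPM + 1). These sums share libraries and cells, so r is a description. The simple keratin Krt18 was nearest to Cldn3 (r = 0.968) and Krt8 to Cdh1 (0.913). Cldn7 was nearest to Cldn3 (0.943), the 1 case among the nearest genes where both are of the 10. Cldn1 was nearest to Clic6 (0.888) and Hhipl2 (0.881), and Cldn8 to Lrrc26 (0.920) and to Prlr (0.910), the prolactin receptor and a marker of the hormone-sensing class. Ocln and Epcam were both nearest to St14 (0.921 and 0.943), the protease matriptase. Dsp was nearest to Dsg2 (0.940), a desmosomal cadherin, and Tjp1 to Mid2 (0.897).

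Other junction genes were taken from a list of 72 tight junction, adherens junction, desmosome and regulator genes, of which 71 are in the count table and 55 were tested in the class fits. Between hormone-sensing luminal-like and luminal progenitor-like cells 7 were higher (26.5% of all genes were) and 23 lower (23.2% of all genes were), with a median log2 fold of -0.41 where that of all genes was 0.022. Tight junction genes gave 4 higher and 13 lower of 23 tested. The higher gene with the smallest adjusted p was Cldn10, a claudin known for paracellular ion transport, with 139, 141, 83.5, 126 and 136 CPM in hormone-sensing luminal-like cells of KO1, KO2, KO3, WT1 and WT2, against 2.59 to 6.27 CPM in luminal progenitor-like cells (log2 4.93 ± 0.37 SE, edgeR adjusted p = 5.4e-07). Dsc2, a desmosomal cadherin, and Evpl, the plakin envoplakin, were also higher (log2 1.91 ± 0.23 and 1.56 ± 0.25 SE), as was Lsr, which marks tricellular junctions (0.70 ± 0.13). Cgnl1, or paracingulin, had 25.7 to 53.4 CPM in hormone-sensing luminal-like cells against 106 to 169 CPM in luminal progenitor-like cells (log2 -1.97 ± 0.20 SE). Cldn23 (-1.88 ± 0.20), the periplakin gene Ppl (-1.71 ± 0.20) and the polarity gene Pard6b (-2.39 ± 0.27) were lower as well, each with an edgeR adjusted p of at most 7.4e-06. Of all claudins tested, Cldn6, Cldn8 and Cldn10 were higher in hormone-sensing luminal-like cells, and Cldn1, Cldn12 and Cldn23 lower. Cldn6 and Cldn12 are outside the rule for naming genes and were added after their values were seen.

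Against luminal progenitor-like cells, basal/myoepithelial-like cells had 10 of the 55 higher and 30 lower, where 22.5% and 22.4% of all genes were. Against hormone-sensing luminal-like cells 17 were higher and 29 lower, where 25.9% and 29.1% of all genes were. The median log2 folds were -0.90 and -0.76, where those of all genes were -0.017 and -0.064. Adherens junction genes were split, with 4 higher and 5 lower of 12 against luminal progenitor-like cells. Cdh3, the basal P-cadherin, had 102, 92.2, 55.4, 109 and 98.2 CPM in basal/myoepithelial-like cells, against at most 0.324 CPM in any luminal sum. Cdh2, or N-cadherin, had 5.97 to 37.6 CPM against at most 0.187 CPM. Snai2, the repressor Slug, had 60.6, 180.4, 95.9, 55.2 and 186 CPM against at most 0.247 CPM. Nectin1 had 100.2 to 198 CPM against 17.4 to 49.1 CPM (log2 1.83 ± 0.23 SE against luminal progenitor-like cells). Lower genes included the desmosomal plakophilin gene Pkp2 (log2 -5.05 ± 0.21 SE), the polarity gene Crb3 (-4.59 ± 0.26) and Marveld2, or tricellulin (-3.97 ± 0.23), each with an edgeR adjusted p of at most 1.4e-09 against luminal progenitor-like cells. Nectin4 was lower against hormone-sensing luminal-like cells (-6.27 ± 0.33 SE).

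**Figure D5:**
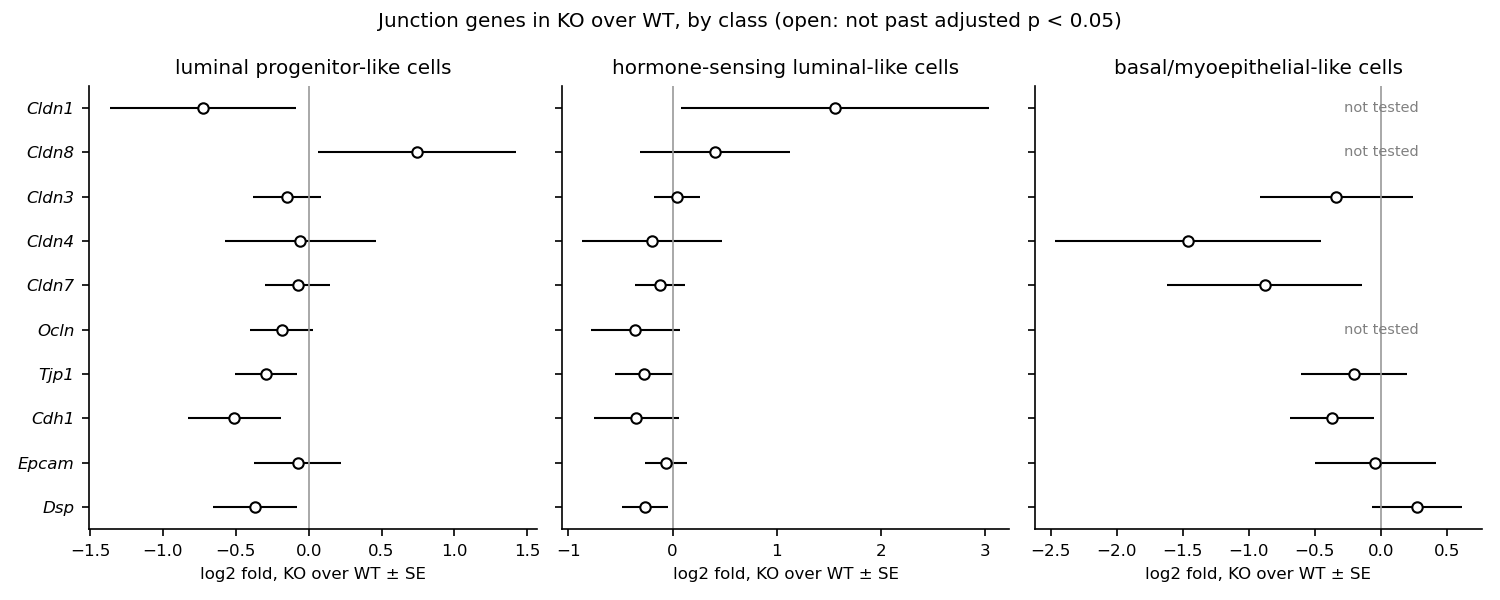
Log2 fold of each junction gene in KO over WT libraries, with the SE of the edgeR fit, in each epithelial class (3 KO and 2 WT libraries). Open points did not pass an adjusted p of 0.05, and genes too sparse in basal cells are marked as not tested. All points are open, from -1.46 (Cldn4, basal) to 1.56 (Cldn1, hormone-sensing).

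The genotype comparison asked whether the same genes differ in Frmd3 KO mice, in each class on its own. None of the 10 passed in any epithelial class. In edgeR's quasi-likelihood test 0 of 11425 genes (0%) were called in luminal progenitor-like cells, 0 of 12742 (0%) in hormone-sensing luminal-like cells and 0 of 8083 (0%) in basal/myoepithelial-like cells. At an unadjusted p under 0.05 there were 105, 98 and 61 genes, and 0 of the 10. With no filter on low counts 59, 0 and 8 genes were called, and leaving out 1 library gave 0 to 3, 0 and 0 to 8, the most without WT2, with 0 of the 10 in each case. DESeq2 called 0, 1 and 1 genes, and 0 of the 10. The difference of the genotype effect between hormone-sensing luminal-like and luminal progenitor-like cells, tested as an interaction, was called for 0 of 12595 genes (0%; 91 at an unadjusted p under 0.05, and 0 by DESeq2).

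In luminal progenitor-like cells 9 of the 10 log2 folds of KO over WT were below 0, with a median of -0.17 where that of all genes was -0.006. Cldn1 had 157, 268 and 51.9 CPM in KO1, KO2 and KO3, against 162 and 393 CPM in WT1 and WT2. The genotypes overlapped (log2 -0.73 ± 0.64 SE, edgeR adjusted p = 0.9997). Cdh1 had 426, 646 and 379 CPM in KO libraries, against 544 and 839 CPM in WT libraries, and the smallest unadjusted p of the 10 (log2 -0.51 ± 0.32 SE, adjusted p = 0.9997). Tjp1 was the 1 gene of 10 whose ranges did not overlap, with 119.5, 103 and 77.8 CPM in KO libraries and 125 and 126 CPM in WT libraries (log2 -0.29 ± 0.21 SE, adjusted p = 0.9997). Ranges were apart for 12.6% of all genes in this class, so 1 of 10 is close to the background. Cldn3, Cldn4, Cldn7 and Epcam were at -0.15 ± 0.23, -0.06 ± 0.52, -0.08 ± 0.23 and -0.08 ± 0.30 (SE). Cldn8 was at 0.74 ± 0.68, Dsp at -0.37 ± 0.29 and Ocln at -0.18 ± 0.22 (SE).

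In hormone-sensing luminal-like cells 7 of the 10 folds were below 0, with a median of -0.16 where that of all genes was -0.003. Cldn4 had 1235, 2664 and 709 CPM in KO libraries, against 888 and 2635 CPM in WT libraries, so the spread within each genotype was wider than the gap between them (log2 -0.19 ± 0.67 SE, edgeR adjusted p = 1.0). Cldn8 had 36.6, 16.7 and 45.4 CPM against 38.9 and 8.64 CPM (log2 0.41 ± 0.72 SE). Cldn3, Cldn7 and Epcam were at 0.04 ± 0.22, -0.12 ± 0.24 and -0.06 ± 0.20 (SE). Dsp was at -0.27 ± 0.22, Tjp1 at -0.28 ± 0.28, Cdh1 at -0.35 ± 0.41 and Ocln at -0.36 ± 0.42 (SE). Cldn1 was at 1.56 ± 1.48, and its highest value, 10.4 CPM, was that of KO3. Of the 175 cells of KO3 in this class, 121 were in a cluster of 455 cells that held 253 of KO2, 77 of WT2, 4 of WT1 and 0 of KO1. Cldn1 was at 12.9 CPM in KO3, 1.74 CPM in KO2 and 2.04 CPM in WT2 there. Ranges were apart for 0 of the 10 genes, where they were for 11.1% of all genes. In the interaction the log2 difference of the 2 genotype effects was at most 0.24 in size for 8 of the genes, -0.50 ± 0.35 for Cldn8 and 1.83 ± 2.20 for Cldn1 (SE, edgeR adjusted p = 1.0).

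In basal/myoepithelial-like cells 7 of the genes had enough counts to be tested, and Cldn1, Cldn8 and Ocln did not. Dsp had 221, 383 and 399 CPM in KO libraries, against 191 and 370.4 CPM in WT libraries (log2 0.27 ± 0.34 SE, edgeR adjusted p = 0.9999). Cdh1 was at -0.37 ± 0.32, Epcam at -0.04 ± 0.46 and Tjp1 at -0.20 ± 0.40 (SE). Cldn3 (-0.34 ± 0.58), Cldn4 (-1.46 ± 1.01) and Cldn7 (-0.88 ± 0.74) rest on levels within or below the range of B cell-like cells. Ranges were apart for 0 of the 7, where they were for 10.3% of all genes.

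Among the other junction genes 0 of 47 tested in luminal progenitor-like, 0 of 49 in hormone-sensing luminal-like and 0 of 35 in basal/myoepithelial-like cells passed in edgeR, with 0 of each at an unadjusted p under 0.05. Of these, 35, 37 and 19 were below 0, with medians of -0.23, -0.12 and -0.016, where those of all genes were -0.006, -0.003 and 0.001. The share of all genes below 0 is not given here. All values come from the same 5 libraries, so their signs are not independent. The listed genes nearest to the threshold were Zeb2, a repressor of Cdh1, at -1.02 ± 0.46 (SE) in luminal progenitor-like cells and Pard6b at 1.56 ± 0.72 in basal/myoepithelial-like cells. In the interaction Cldn23 was at 0.78 ± 0.31 (SE, unadjusted p = 0.0341, adjusted p = 1.0). The 8 genes of the leukocyte marker list summed to 15.6 to 36.4 CPM in luminal progenitor-like cells of KO libraries, against 42.7 to 68.9 CPM of WT libraries. In hormone-sensing luminal-like cells the sums were 8.59 to 26.2 CPM in KO libraries against 25.9 to 32.4 CPM in WT libraries, and in basal/myoepithelial-like cells 6.40 to 32.5 CPM against 26.1 to 97.6 CPM. The genotypes overlapped in both of these classes and not in luminal progenitor-like cells. At least 3 of the 8 had a UMI in every sum, and their part in the results was not tested. The luminal keratins Krt8, Krt18 and Krt19 summed to 14740 to 22540 CPM in hormone-sensing luminal-like cells of KO libraries, against 23070 to 23270 CPM of WT libraries, and the 10 markers of that class to 8226 to 11110 CPM against 11320 to 11880 CPM. In basal/myoepithelial-like cells the 12 luminal progenitor markers summed to 1831 to 2610 CPM in KO libraries, against 2732 to 3068 CPM in WT libraries. These are some of many marker lists, and other lists were apart as well. Skeletal muscle markers, for example, summed to 0 to 0.179 CPM in luminal progenitor-like cells of KO libraries, against 2.81 to 4.20 CPM of WT libraries. For single genes, ranges were apart for 12.6%, 11.1% and 10.3% in luminal progenitor, hormone-sensing and basal cells. The marker sums are not read as a genotype effect, and their part in the junction gene values was not tested.

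Outside the epithelium 0 of 9 genes tested passed by genotype in fibroblast-like, 0 of 5 each in macrophage-like, NK/innate lymphoid-like and B cell-like, and 0 of 4 in T cell-like cells. In fibroblast-like, macrophage-like, NK/innate lymphoid-like, T cell-like and B cell-like cells edgeR called 0%, 0%, 0%, 0% and 0.028% of all genes. Tjp1 in fibroblast-like cells had 39.4, 44.5 and 37.4 CPM in KO libraries, against 37.5 and 38.1 CPM in WT libraries (log2 0.08 ± 0.18 SE, adjusted p = 1.0). Epcam in T cell-like cells (1.41 ± 0.49 SE) and Cldn7 in B cell-like cells (-2.04 ± 0.76 SE) were the 2 with an unadjusted p under 0.05. Over all genes, 173 of 5533 in T cell-like and 147 of 7153 in B cell-like cells had one. The 2 values rest on 125 UMIs of Epcam and 46 UMIs of Cldn7 over all libraries, at background levels, and are not read as results. In B cell-like cells Cldn4, Cldn7 and Epcam passed without KO2, at log2 folds of -2.39, -3.10 and -2.41, as did 45 of all 8586 genes tested. KO3 had 0 B cell-like cells, so that fit sets KO1 alone against WT1 and WT2 and assumes that KO1 varies like the WT libraries.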

How the data were processed

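Single-cell libraries of mammary gland from 3 Frmd3 KO and 2 WT mice were used as UMI counts per gene and barcode, as the authors deposited them. Per the file headers they come from Cell Ranger 6.0.2 (6.1.2 for KO3), and per the submitters' processing notes the build is mm10. P-values of the genotype fits measure the spread between mice of the same genotype, over 5 mice, or 4 in B cell-like cells. In the class contrasts and the interaction the library is a block. There they measure how far the difference between classes varies from mouse to mouse. The genes and lists were chosen with earlier results of these data known.

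Cells with under 500 genes or over 15% mitochondrial UMIs were left out. Doublets were scored against 2 simulated doublets per cell, and the top 0.8% per 1000 barcodes were removed. Clusters came from 2000 variable genes, 30 components, 20 neighbours and Leiden resolution 1.0 (scanpy 1.11.5, leidenalg 0.10.2, Python 3.11.15), without junction genes, Frmd3, mitochondrial, ribosomal, haemoglobin or sex-linked genes. Naming a cluster took at least 3 markers of a class in 10% of cells, a mean marker log2 fold over 1 and 1 above the next class, and no more markers of another class among the top 10 genes. Of 32 clusters, 8 got no name.

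Counts were summed per library and class (at least 20 cells) and tested with edgeR 4.0.16 (TMM, filterByExpr, robust quasi-likelihood) in R 4.3.3, with limma 3.58.1 underneath. DESeq2 1.42.0 was an alternative. The fits were also run on simulated counts with the same spread setting for every gene and no effect of library. That run does not show how the test behaves with the spread of these libraries. SE is the size of the log2 fold over the root of F. CPM was computed from class sums with no further scaling, and 38 duplicated symbols were kept apart by ID. All 10 genes are named, and of the other junction genes up to 4 per direction with the smallest adjusted p in class contrasts and 2 per direction with the smallest unadjusted p where none was called, of which some are printed. Likeness used genes with a mean CPM of at least 1, and some named genes are not reported here. Intervals are exact (Clopper-Pearson) at 95% and, like floors of 3 UMIs, cover counting error only.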

Additional observations from a re-analysis of the deposited data

Results flagged for a closer look

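The 2 measurements here come from cells that no comparison above uses, those in the 8 clusters that got no name, and are listed because every KO library lies above both WT libraries. The same holds for 11.8% of the 13657 genes with a mean of at least 1 CPM in these cells, so 2 of 10 is not read as a result. Cldn7 was at 86.6, 142 and 52.2 CPM in KO1, KO2 and KO3, against 32.3 and 48.0 CPM in WT1 and WT2. Dsp was at 18.6, 22.4 and 12.1 CPM in KO1, KO2 and KO3, against 5.61 and 11.3 CPM in WT1 and WT2. The largest of these clusters had 3861 cells, 3768 of them from KO1, and was led by Retnla, Dcn, C1qa, Lcn2, Csn3 and Lyz2, which mark different cell types. Its part in these values was not tested.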

How the results depend on the processing

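Between epithelial classes, 358 of 360 values under other settings kept their side of the threshold, and their direction where past it. Over these and the genotype values, 92 changed sign while passing in neither fit. The exceptions were Cdh1 without a library block (-0.42, not past it) and Cldn1 in basal against hormone-sensing cells with doublets kept (2.43, past it). Other moves by over 1.5 times were in genes with few basal or hormone-sensing UMIs. Cldn1 in hormone-sensing against luminal progenitor cells ranged from -8.02 to -6.15. Cldn3 and Cldn7 in basal against luminal progenitor cells were -4.77 and -4.95 with the stricter filter on cells. By genotype the counts of the 10 genes called were 0 under every setting in the epithelial classes. In the other classes the count was 0, and 0 to 3 when leaving out 1 library each time, with 3 without KO replicate 2, all in B cell-like cells with KO1 as the only KO library left, where 45 of 8586 genes were called. The fit with the replicate number as a block also called 0 of the 10, while over all genes it called 12 in luminal progenitor, 71 in hormone-sensing and 13 in basal cells, against 0 without it. No filter on low counts gave 59, 0 and 8. Deviations of same-numbered libraries from their genotype mean correlated at 0.243 and 0.453 in luminal progenitor cells and 0.578 and 0.662 in hormone-sensing cells. With 2 WT libraries the deviations of WT1 and WT2 mirror each other. Each KO library thus has the same r with both, with the sign reversed, and the values are not separate evidence. The differently numbered pair KO3 and WT1 was positive too, at 0.170 and 0.076. Only 2 same-numbered pairs exist and nothing ties a number to a shared day. The median share of luminal progenitor cells with a UMI was 42.3% over the 10 genes, 26.0% when thinned to 1000 UMIs, 74.1% without thinning and 38.7% to 45.2% without 1 library. The cause was not tested. Few cells limit KO3 (47 luminal progenitor cells) and basal sums (33 to 135 cells).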

Other observations

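Other claudins and junction genes marked the classes outside the epithelium. These are means over libraries with at least 20 cells, with no test. Blood endothelial-like cells had 1159 ± 543 CPM of Cldn5, the claudin of the blood-brain barrier, 889.8 ± 349.7 CPM of Cdh5, or VE-cadherin, 604 ± 120 CPM of Esam and 252 ± 93.7 CPM of Jam2 (SD, n = 3). Schwann/glial-like cells had 522 ± 259.9 CPM of Cldn19, a claudin known from peripheral myelin, 167 ± 30.4 CPM of Jam3 and 132 ± 10.7 CPM of Cdh2 (SD, n = 3). Fibroblast-like cells had 22.6 ± 6.98 CPM of Cldn10 (SD, n = 5), against 125 ± 23.9 CPM in hormone-sensing luminal-like cells. Cldn6 was at 10.3 ± 3.20 CPM in hormone-sensing luminal-like cells and 1.03 ± 0.954 CPM in luminal progenitor-like cells (SD, n = 5). Pkp1, a desmosomal plakophilin gene, was at 77.9 ± 24.97 CPM in basal/myoepithelial-like, 11.8 ± 7.18 CPM in hormone-sensing luminal-like and 74.4 ± 16.0 CPM in luminal progenitor-like cells (SD, n = 5).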
